A study of Mus musculus with 2 samples.

Results

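The small leucine-rich proteoglycans described here are 9 genes, Dcn, Bgn, Aspn, Lum, Fmod, Kera, Prelp, Omd and Ogn, taken by symbol from the 32285 genes in the deposited count tables. All 9 were found, and each was counted in every stromal cell class of both libraries. The tissue was the enthesis of the Achilles tendon, the place where the tendon inserts into the heel bone, of SKG mice. SKG mice carry a Zap70 mutation and are prone to autoimmune arthritis and enthesitis, and both groups shared this strain. Of the 2 groups, 1 library came from non-tail suspension mice and 1 from tail suspension mice, in which the hind limbs are lifted off the ground and unloaded. The number of animals pooled, their age and sex, the length of suspension and any induction of disease are not given in the labels.

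Small leucine-rich proteoglycans are secreted proteins built on a curved stack of leucine-rich repeats. They bind collagen fibrils, set how the fibrils grow in width and how they are spaced, and hold growth factors such as TGF-beta in the matrix. Decorin (Dcn), biglycan (Bgn) and asporin (Aspn) form one class, in which decorin and biglycan carry chondroitin or dermatan sulfate chains and asporin carries none. Lumican (Lum), fibromodulin (Fmod), keratocan (Kera), PRELP and osteoadherin (Omd) form a class in which most members carry keratan sulfate, and osteoglycin (Ogn) belongs to a further class. In tendon, decorin is the abundant member, fibromodulin and lumican share a collagen binding region, and mice without biglycan and fibromodulin form bone inside their tendons.

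The 2 libraries held 121868851 and 166606774 UMIs (unique transcript molecules), and 10814 non-tail suspension and 13991 tail suspension cells were kept, with median depths of 4649 and 8362 UMIs. They were grouped into 33 clusters, made without the 9 genes among the genes that drive the clustering. A set of 10 clusters, here called the fibroblast lineage, had less than 100 CPM of the leukocyte gene Ptprc and more than 1000 CPM of Col1a1 and were not mural-like, a definition set after seeing the data. CPM is the summed UMIs of a gene scaled to a total of 1000000 UMIs in the same cells. In the lineage the summed tenocyte markers (10 genes) stood at 4108 and 1719 CPM, chondrocyte markers (8) at 283 and 53.2 CPM and markers of mineralising cells (8) at 39.2 and 196 CPM, each without and with suspension. The sheath or lining fibroblast markers (8) stood at 6243 and 32054 CPM and erythroid markers (5) at 47.6 and 815 CPM. The part of these differences in the levels of the 9 genes was not tested. The lineage held 2122 non-tail suspension cells with 55755158 UMIs and 6861 tail suspension cells with 100448954. With 1 library a group there is no test of any difference: suspension, library and batch cannot be told apart, and every interval is an exact 95% interval for counting error only. The libraries share 47 barcode sequences.

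The family belonged almost wholly to the fibroblast lineage. Between 95.6% (Fmod with tail suspension) and 98.2% (Dcn without it) of each gene's UMIs lay there in each library. The 9 genes together were 1.82% of all lineage UMIs without suspension and 1.54% with it. A lineage cell held UMIs of a median of 6 of the 9 genes in the non-tail suspension library and 5 in the tail suspension library, at median depths of 24456.5 and 11783 UMIs, and of 4 in both after every cell was thinned to 2000 UMIs. The bar plot of where the UMIs lay shows how the holders differed between libraries. Tenocyte-like cluster 0, led by Thbs4, Comp and the type I collagen genes, was 44.3% of lineage cells without suspension and 1.59% with it, and inflammatory fibroblast-like cluster 1, led by Ptx3 and Apod, was 3.39% and 23.4%. At finer clustering (Leiden resolution 2.0) cluster 1 was divided into 746 cells of an inflammatory fibroblast-like, 823 of an interstitial fibroblast-like and 82 of an unnamed cluster, so its name covers only a part of it.

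**Figure D1:**
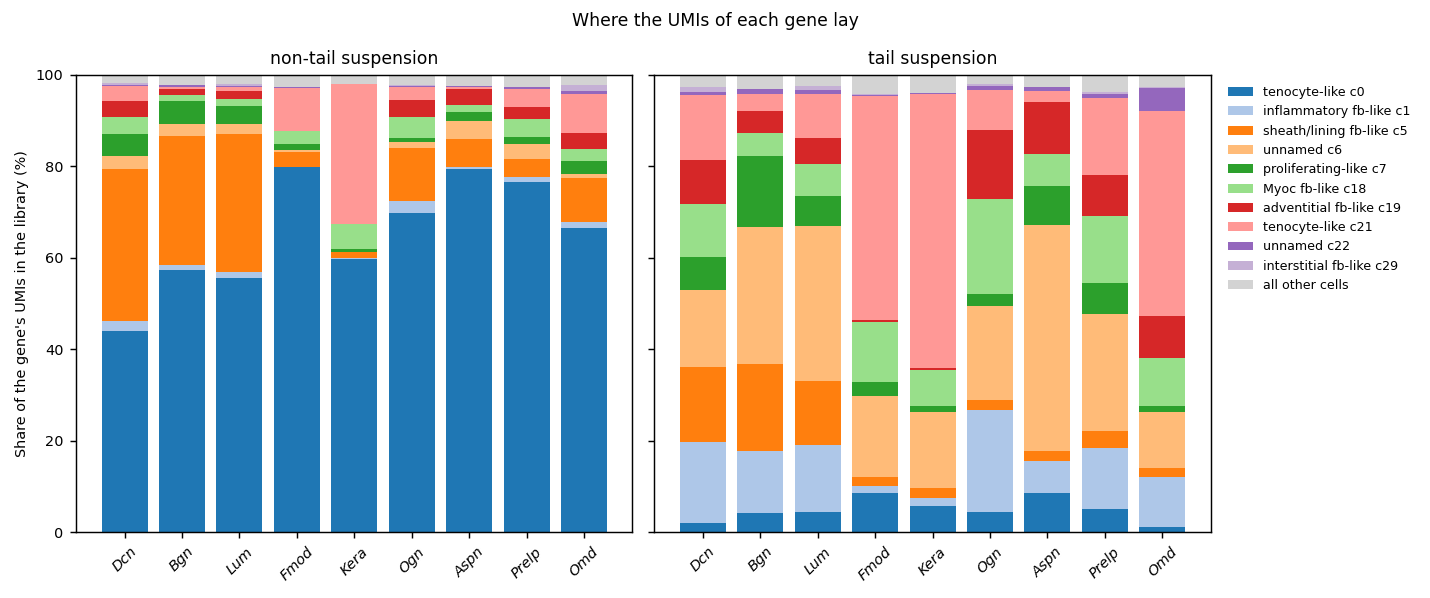
Share of each gene's UMIs by cluster, as stacked bars in percent of the gene's UMIs in a library, with 1 panel per library (c, cluster; fb, fibroblast). Tenocyte-like cluster 0 held 79.8% of Fmod and 79.4% of Aspn UMIs without suspension, while with suspension tenocyte-like cluster 21 held 49.0% of Fmod and 59.96% of Kera UMIs.

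RNA released from broken cells reaches every droplet, so the level in T or NK-like cells, which do not make these proteins, was taken as a floor. There the 9 genes summed to 265 CPM without suspension and 1022 CPM with it. Single genes stood at 0 (Omd) to 2.05% (Kera) of their lineage level in the non-tail suspension library. They stood at 2.20% (Omd) to 24.2% (Fmod) in the tail suspension library. For Fmod the T or NK-like level with suspension, 71.4 CPM, came from 327 UMIs in 5.05% of cells. Neutrophil-like cells stood at 32.9 CPM and blood endothelial-like cells at 3.38 CPM, so 71.4 CPM of Fmod was not shared by all droplets. Values at or below these levels are read as background.

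**Figure D2:**
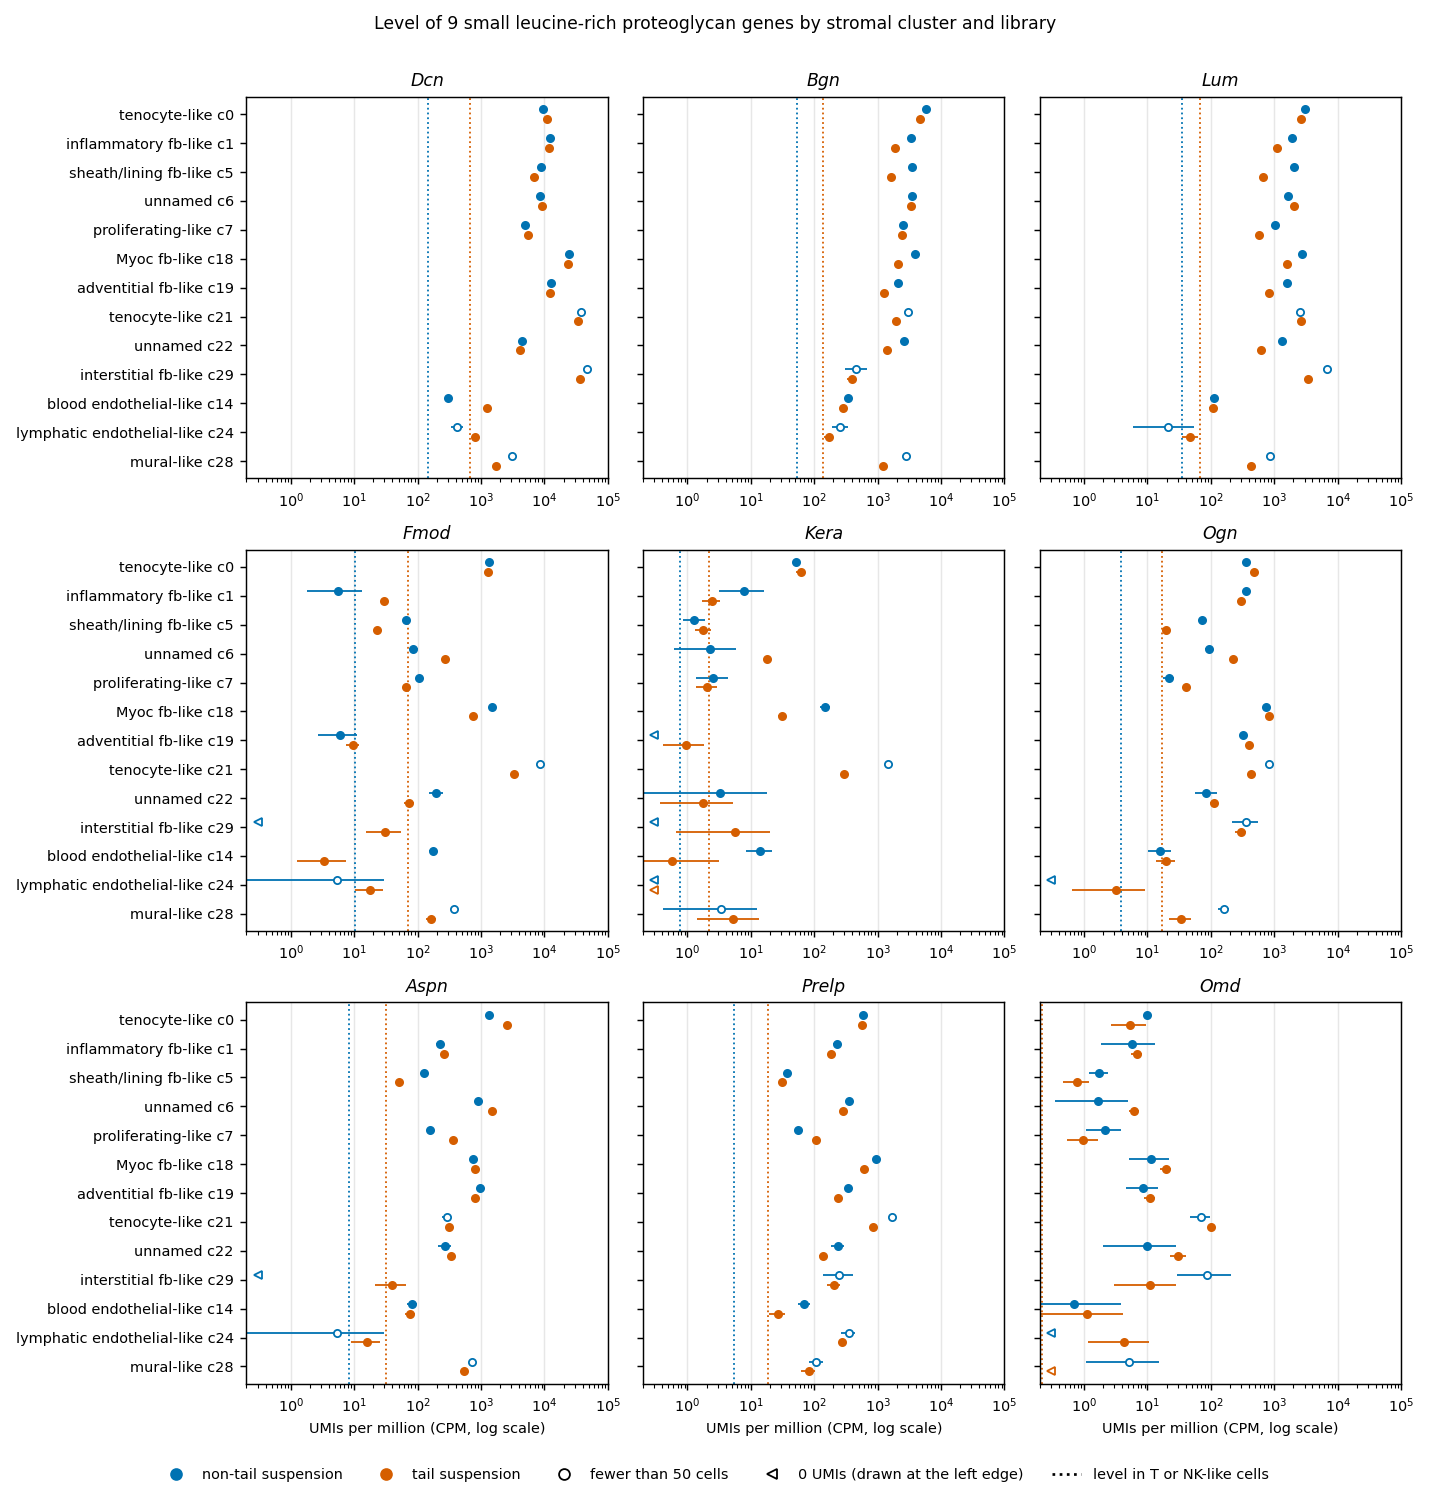
Level of each gene in CPM (log axis) in the 10 fibroblast-lineage clusters and in endothelial-like and mural-like clusters, for both libraries, with exact Poisson 95% intervals (cut at the left edge where they reach lower) and the level in T or NK-like cells as dotted lines. Dcn stands far above the dotted lines in every lineage cluster, whereas Fmod and Kera span from below the dotted lines to their peak in tenocyte-like cluster 21.

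Decorin had the narrowest range of ratios between libraries over the lineage clusters. Dcn (ENSMUSG00000019929, GRCm38 chromosome 10, 97479609 to 97518143) stood at 9372 CPM (9347 to 9398) in the non-tail suspension lineage and 10652 CPM (10632 to 10673) in the tail suspension lineage, and 99.3% and 99.5% of lineage cells held a UMI of it. It was highest in interstitial fibroblast-like cluster 29, led by Apod, Gpc3 and Smoc2, at 46416 CPM in 7 non-tail suspension cells and 36704 CPM in 112 tail suspension cells. Tenocyte-like cluster 21, led by Angptl7, Clu and Comp, followed at 37911 CPM in 32 cells and 34100 CPM in 612 cells. Myoc fibroblast-like cluster 18 came next at 24404 and 23316 CPM. The lowest lineage levels were in proliferating-like cluster 7 (4997 and 5482 CPM) and unnamed cluster 22 (4433 and 4072 CPM), a cluster of low depth. The 3 highest clusters and the 2 lowest kept their places in both libraries, and the intervals of neighbours among them did not overlap.

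In the 8 lineage clusters with at least 50 cells in each library, a minimum chosen after seeing the data, the log2 ratio of Dcn (tail suspension over non-tail suspension) lay between -0.36 and 0.23. It was 0.23 (0.21 to 0.25) in tenocyte-like cluster 0 and 0.13 (0.11 to 0.15) in proliferating-like cluster 7. In adventitial fibroblast-like cluster 19 it was -0.01 (-0.03 to 0.01), an interval that holds 0.

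Biglycan, which shares decorin's class and binds the innate receptors TLR2 and TLR4 when released, was lower in the tail suspension library in each of those 8 clusters. Bgn (ENSMUSG00000031375, chromosome X, 73483602 to 73495933) stood at 4425 CPM (4408 to 4443) in the non-tail suspension lineage and 2202 CPM (2193 to 2211) in the tail suspension lineage. Tenocyte-like cluster 0 was highest in both, at 5881 and 4596 CPM. In inflammatory fibroblast-like cluster 1 the levels were 3299 and 1870 CPM, in Myoc fibroblast-like cluster 18 they were 3813 and 2113 CPM, and in adventitial fibroblast-like cluster 19 they were 2120 and 1271 CPM. In proliferating-like cluster 7 (2539 and 2458 CPM) and unnamed cluster 6 (3529 and 3323 CPM) the libraries were close. Without suspension the intervals of clusters 5 and 6 overlapped, so their order is not read. The 8 log2 ratios ran from -1.10 (-1.11 to -1.08) in sheath or lining fibroblast-like cluster 5 to -0.05 (-0.08 to -0.02) in cluster 7. Interstitial fibroblast-like cluster 29, where decorin peaked, had the lowest Bgn of the lineage, at 460 CPM (301 to 674) and 388 CPM (326 to 458).

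The proportion of decorin to biglycan also differed. The non-tail suspension lineage held 2.12 Dcn UMIs for each Bgn UMI and the tail suspension lineage 4.84. The proportion was 1.62 and 2.43 in tenocyte-like cluster 0, 3.75 and 6.23 in inflammatory fibroblast-like cluster 1, 6.40 and 11.03 in Myoc fibroblast-like cluster 18, and 5.91 and 9.78 in adventitial fibroblast-like cluster 19. In cluster 6 it was 2.42 and 2.71, and in proliferating-like cluster 7 it was 1.97 and 2.23. Interstitial fibroblast-like cluster 29 went the other way, at 100.8 and 94.6, from 26 and 140 Bgn UMIs. The pooled values mix clusters whose shares of the lineage differed between libraries. T or NK-like cells showed 2.74 and 4.92, and B-like cells 1.44 and 4.54. This proportion is between UMIs of 2 genes in the same cells and does not depend on the total used for CPM.

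Asporin, which binds TGF-beta and collagen, went a different way. Aspn (ENSMUSG00000021388, chromosome 13, 49544443 to 49567565) stood at 717 CPM (710 to 725) and 595 CPM (590 to 599) in the pooled lineage, a log2 ratio of -0.27 (-0.29 to -0.25). Within tenocyte-like cluster 0, its highest cluster in both libraries, it was higher with suspension, at 2548 against 1327 CPM, with a log2 ratio of 0.94 (0.90 to 0.98). At finer clustering cluster 0 was divided, with log2 ratios of Aspn of 0.70 in a Thbs4-led part and 0.48 in an Sfrp2-led one that also holds cells of cluster 19. The Thbs4-led part took 375 of its cells without suspension and 63 with it, and the Sfrp2-led part 522 and 38. It was also higher in unnamed cluster 6, led by Col1a2, Postn and Aspn itself (1475 against 902 CPM), and in proliferating-like cluster 7 (366 against 156 CPM). In clusters 18 and 19 the levels were 742 and 797 CPM, and 976 and 814 CPM. Of the 8 clusters 6 were higher and 2 lower. Among the higher ones the interval of cluster 18 holds 0 (-0.02 to 0.23). Those of clusters 1 (0.005 to 0.42) and 22 (0.02 to 0.70) begin just above 0. The pooled value lay below 0 while most clusters lay above it. Cluster 0 held 79.4% of Aspn UMIs without suspension and 8.51% with it, and cluster 6 held 3.91% and 49.4%. The intervals of clusters 6 and 19 overlapped without suspension, as did those of clusters 18 and 19 with it.

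Lumican, which carries keratan sulfate in cornea and regulates fibril diameter, was lower with suspension in 7 of the 8 clusters. Lum (ENSMUSG00000036446, chromosome 10, 97565128 to 97572703) stood at 2392 CPM (2379 to 2405) and 1210 CPM (1203 to 1217) in the lineage. In inflammatory fibroblast-like cluster 1 it was at 1938 and 1093 CPM, in Myoc fibroblast-like cluster 18 at 2761 and 1608 CPM, in adventitial fibroblast-like cluster 19 at 1574 and 819 CPM, and in proliferating-like cluster 7 at 1015 and 568 CPM. Tenocyte-like cluster 0 differed less, at 3086 and 2681 CPM, with a log2 ratio of -0.20 (-0.24 to -0.16). Unnamed cluster 6 was the exception, at 1665 and 2051 CPM. In tenocyte-like cluster 21 the intervals of the libraries overlapped, at 2589 CPM (2442 to 2743) and 2638 CPM (2591 to 2685).

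Fibromodulin, which guides the cross-linking of tendon collagen, had the lowest pooled log2 ratio of the family, -1.27 (-1.29 to -1.25). Fmod (ENSMUSG00000041559, chromosome 1, 134037254 to 134048277) stood at 711 CPM (704 to 718) and 295 CPM (292 to 299) in the lineage. It was found in fewer cells than decorin: 45.9% and 25.8% of lineage cells held a UMI, and 30.03% and 16.1% after thinning, against 2.43% and 2.85% of thinned T or NK-like cells. Tenocyte-like cluster 21 was highest, at 8625 CPM (8355 to 8902) in its 32 non-tail suspension cells and 3345 CPM (3292 to 3398) in its 612 tail suspension cells. Tenocyte-like cluster 0 stood at 1324 CPM (1310 to 1339) and 1292 CPM (1243 to 1342), with a log2 ratio of -0.04 (-0.09 to 0.02), an interval that holds 0. Myoc fibroblast-like cluster 18 stood at 1468 and 740 CPM, and cluster 6 at 85.4 and 267 CPM. In the tail suspension library clusters 1, 5, 7 and 19 stood at 29.9, 22.7, 66.0 and 9.52 CPM, below the T or NK-like level of 71.4 CPM. Cluster 22 stood at that level, with 74.1 CPM (61.6 to 88.4). Clusters 7 and 22 stood above the neutrophil-like level of 32.9 CPM, so calling them background rests on the T or NK-like level. No difference is read for Fmod in those 5 clusters, although their ratios enter the counts by cluster below.

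The lower pooled Fmod was thus not seen within cluster 0, the cluster that held 79.8% of its UMIs without suspension and 8.55% with it. With the tenocyte-like clusters left out, the pooled log2 ratio turned to 0.24. The mean of the ratios within the 8 clusters was 0.010. The first pools clusters whose shares of the lineage differed between libraries, and the part of these shares was not tested. Both take in the clusters at or below the T or NK-like level, where no difference is read for Fmod. Nothing is read from either. Of the other clusters, Myoc fibroblast-like cluster 18 was lower, at -0.99 (-1.08 to -0.89), and unnamed cluster 6 higher, at 1.64 (1.41 to 1.89). Tenocyte-like cluster 21, not among the 8, was also lower with suspension, with 32 cells without it. At finer clustering (Leiden resolution 2.0) cluster 0 was divided. A Thbs4-led cluster, with 375 and 64 cells, had Fmod at 2469 and 2117 CPM. An unnamed cluster led by Sfrp2 had Fmod at 598 CPM in 611 non-tail suspension cells. In 185 tail suspension cells it had Fmod at 65.8 CPM. That was no higher than the T or NK-like level but above the neutrophil-like level of 32.9 CPM. Of those 185 cells 133 came from adventitial fibroblast-like cluster 19 and 38 from cluster 0, so the 2 values are not of like cells.

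Keratocan, known from the cornea and also made by tendon cells, was concentrated in the same cells. Kera (ENSMUSG00000019932, chromosome 10, 97606879 to 97613692) stood at 37.8 CPM (36.2 to 39.4) and 20.96 CPM (20.1 to 21.9) in the lineage. In tenocyte-like cluster 21 it was at 1472 CPM (1361 to 1589) in 32 cells and 290 CPM (274 to 306) in 612 cells, with a UMI in 81.2% and 33.3% of cells. In tenocyte-like cluster 0 it was at 52.2 CPM (49.4 to 55.1) and 60.95 CPM (50.7 to 72.6), whose intervals overlap, and in Myoc fibroblast-like cluster 18 at 149 and 31.1 CPM. In clusters 1, 5, 7, 19 and 22 of the tail suspension library it stood between 0.9398 and 2.40 CPM, beside 2.18 CPM (1.05 to 4.01) in T or NK-like cells. With suspension the 2 tenocyte-like clusters held 65.7% of all Kera UMIs, and without it 90.1%.

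PRELP, which anchors basement membranes to the collagen beneath them, was lower in 7 of the 8 clusters, each by less than 2-fold. Prelp (ENSMUSG00000041577, chromosome 1, 133910304 to 133921414) stood at 335 CPM (330 to 340) and 219 CPM (216 to 222) in the lineage. Tenocyte-like cluster 21 was highest, at 1673 and 840 CPM, followed by Myoc fibroblast-like cluster 18 at 946 and 614 CPM. Tenocyte-like cluster 0 stood at 598 and 559 CPM and adventitial fibroblast-like cluster 19 at 336 and 241 CPM. Proliferating-like cluster 7 went the other way, at 56.1 and 107 CPM. Clusters 6 and 19 had overlapping intervals without suspension.

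Osteoglycin, named for bone but made widely in connective tissue, was level in the pooled lineage. Ogn (ENSMUSG00000021390, chromosome 13, 49608046 to 49624501) stood at 224 CPM (220 to 228) and 217 CPM (214 to 220), with a log2 ratio of -0.05 (-0.08 to -0.01). Within clusters it was higher with suspension in 6 of 8, among them unnamed cluster 22, whose interval holds 0 (-0.21 to 1.04). Tenocyte-like cluster 0 stood at 363 and 476 CPM, Myoc fibroblast-like cluster 18 at 751 and 840 CPM, adventitial fibroblast-like cluster 19 at 317 and 398 CPM, and unnamed cluster 6 at 93.8 and 221 CPM. Cluster 1 was lower, at 356 and 297 CPM, and so was cluster 5, at 73.4 CPM and 19.5 CPM, where the second value is close to the free RNA level of 17.02 CPM. Cluster 21, at 814 and 422 CPM, overlapped with cluster 18 without suspension and stood below it with suspension.

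Osteoadherin, a bone and tooth matrix protein that binds hydroxyapatite, was the scarcest member. Omd (ENSMUSG00000048368, chromosome 13, 49582462 to 49592822) rested on 359 UMIs in the non-tail suspension lineage, or 6.44 CPM (5.79 to 7.14), and on 998 UMIs in the tail suspension lineage, or 9.94 CPM (9.33 to 10.6). Its pooled log2 ratio was 0.63 (0.45 to 0.80). Tenocyte-like cluster 21 held 44.8% of Omd UMIs with suspension, at 101 CPM (92.1 to 111), against 69.5 CPM (47.2 to 98.7) in the 32 cells without it, and the intervals overlap. Of its 459 Omd UMIs with suspension 306 lay in 80 cells with at least 2 UMIs of Ibsp, the split described below. In cells with no Ibsp UMI Omd was lower with suspension, at 73.2 and 40.5 CPM (log2 ratio -0.85, from -1.44 to -0.22). Those values rest on 29 and 518 cells. In cells with at least 2 Ibsp UMIs Omd stood at 40.5 and 334 CPM, from 3 and 80 cells. Within tenocyte-like cluster 0 it was at 9.93 and 5.36 CPM, from 244 and 11 UMIs, with a log2 ratio of -0.89 (-1.91 to -0.02).

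Over the pooled lineage 7 of the 9 genes were lower with suspension and 2 higher, with a median log2 ratio of -0.61 against 0.07 over all 16553 genes with at least 20 UMIs. Fmod and Bgn were at least 2-fold lower, 2 of 9, where 5.94% of all genes were. Bgn at -1.01 stood just inside that limit and Lum at -0.98 just outside. None of the 9 was at least 2-fold higher, where 10.6% of all genes were. With the tenocyte-like clusters left out the median turned to 0.37, with no gene 2-fold lower and 2 higher. The share over all genes was not computed for that setting, so these counts are not read. As a mean within the 8 clusters the median was -0.025. Bgn and Lum were below 0 in all 18 settings run on the lineage (-1.23 to -0.44 and -1.27 to -0.52). Dcn stayed between -0.03 and 0.39. The other 6 genes each took both signs, though Kera and Prelp were below 0 in 17 of the 18.

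**Figure D3:**
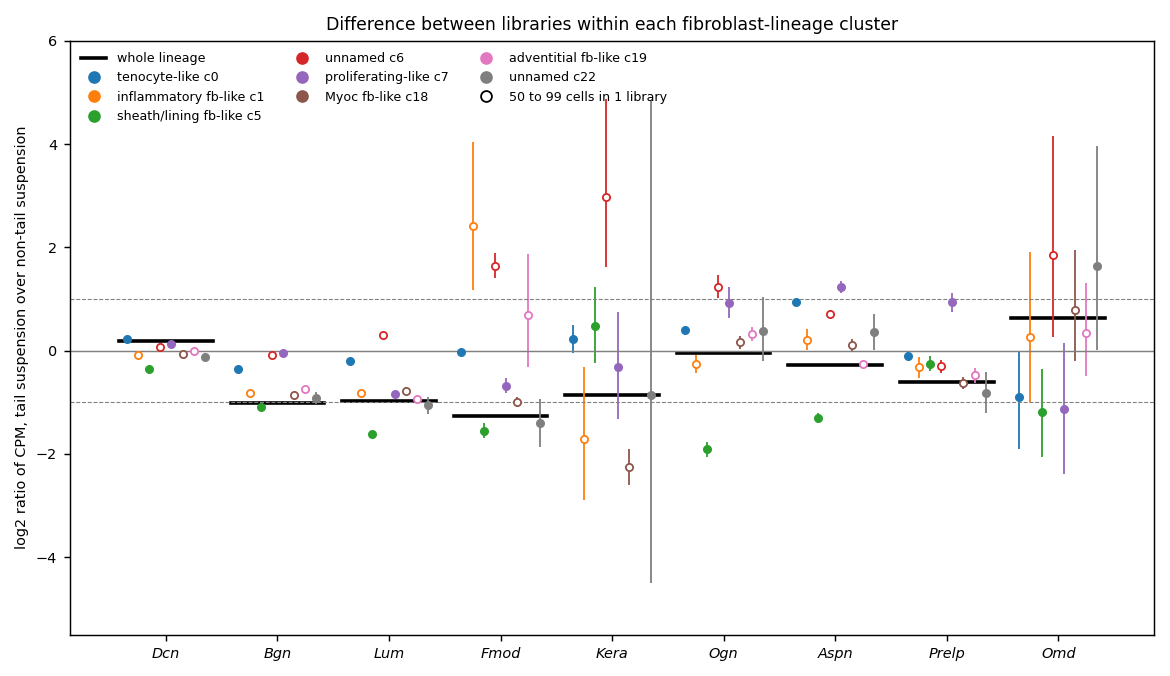
Log2 ratio of CPM, tail suspension over non-tail suspension, for each gene in the 8 lineage clusters with at least 50 cells in both libraries (points, with exact 95% intervals for counting error; open where a library has fewer than 100 cells) and in the whole lineage (black bars). Bgn lies below 0 in all 8 clusters, Dcn stays close to 0, and the clusters of Fmod, Kera and Aspn lie on both sides of 0.

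Of the 8 clusters 4 had at least 100 cells in both libraries, the minimum used for a comparison of counts inside a cluster. In tenocyte-like cluster 0 no gene was at least 2-fold lower or higher, where 8.42% and 6.6% of 13053 genes were. In proliferating-like cluster 7 Omd was at least 2-fold lower (where 5.27% of genes were), from 11 and 14 UMIs, and Aspn at least 2-fold higher (7.4%). In unnamed cluster 22 Lum and Fmod were at least 2-fold lower (7.79%) and Omd at least 2-fold higher (12.3%), the last from 3 and 51 UMIs. The 2 tenocyte-like clusters pooled, cluster 0 being most of the cells without suspension and cluster 21 most of those with it, gave 1 gene at least 2-fold lower (Bgn, where 9.28% of genes were) and 3 at least 2-fold higher (Dcn, Kera and Omd, 9.3%). The part of the cells with Ibsp, described below, in the Omd value was not tested.

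The other 4 clusters rest on 58 to 84 non-tail suspension cells. In inflammatory fibroblast-like cluster 1 Kera was at least 2-fold lower (where 11.6% of genes were) and Fmod at least 2-fold higher (7.34%), from 7 and 5 non-tail suspension UMIs. In unnamed cluster 6 no gene was at least 2-fold lower (6.4%) and 4 were at least 2-fold higher (10.9%), Fmod, Ogn, Kera and Omd, of which Kera and Omd had 4 and 3 UMIs without suspension. In Myoc fibroblast-like cluster 18 Kera alone was at least 2-fold lower (5.94%), with Fmod just short of it at -0.99, and none was at least 2-fold higher (8.12%). The Kera UMIs there lay in few cells, 118 UMIs in 9 of 58 cells without suspension and 172 in 35 of 545 with it. In adventitial fibroblast-like cluster 19 no gene passed 2-fold lower (5.54%) or higher (7.85%).

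In sheath or lining fibroblast-like cluster 5, led by Prg4, Mmp3 and Cxcl5, 6 of 9 genes were at least 2-fold lower with suspension, where 9.77% of 14036 genes were, and none at least 2-fold higher (8.88%). Fmod, Ogn and Omd among the 6 stood at or near the free RNA level with suspension or on few UMIs. Lum stood at 2029 and 666 CPM (log2 ratio -1.61), Bgn at 3532 and 1653 CPM (-1.10) and Aspn at 124 and 50.4 CPM (-1.30). At finer clustering these cells were divided. An Mmp3- and Cxcl5-led cluster held 553 non-tail suspension and 27 tail suspension cells, and a Prg4-led cluster held 86 and 900. Within the Prg4-led cluster Lum stood at 834 and 790 CPM, Bgn at 2215 and 1860 CPM and Dcn at 7359 and 7084 CPM. Their log2 ratios were -0.08, -0.25 and -0.05. The 2-fold differences of Lum and Bgn in cluster 5 were thus not seen inside the Prg4-led cluster. Within the Mmp3- and Cxcl5-led cluster Lum was at 2240 and 2506 CPM and Bgn at 3736 and 3330 CPM. By these values Lum and Bgn differed between the 2 kinds of cell more than between the libraries within either. The values rest on as few as 27 and 86 cells in a library, under the minimum of 100 used for a comparison. The reading covers Lum and Bgn only. Aspn, Fmod, Ogn and Omd, also at least 2-fold lower in cluster 5, are not compared here within the 2 kinds of cell. The part of the 2 kinds of cell in the ratios of cluster 5 was not tested.

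Among the 612 tail suspension cells of tenocyte-like cluster 21 the family parted along Ibsp, the gene of bone sialoprotein, a matrix protein of mineralising tissue. This split was chosen after seeing the data, and cluster 21 has only 32 cells in the other library, 3 of them with at least 2 Ibsp UMIs. The cells with Ibsp had the tenocyte marker Thbs4 at 214 CPM against 4824 CPM in those without, so the name tenocyte-like is not borne out for them by Thbs4. With suspension 80 cells held at least 2 Ibsp UMIs, 518 held none and 14 held 1 UMI and were left out. Omd stood at 334 CPM in the cells with Ibsp and 40.5 CPM in those without, a log2 ratio of 3.05 (2.75 to 3.34). Fmod stood at 793 and 4052 CPM (-2.35, from -2.46 to -2.25) and Ogn at 131 and 509 CPM (-1.96, from -2.23 to -1.69). Kera had 0 UMIs among 915308 in the cells with Ibsp and 1315 UMIs, or 375 CPM, in those without. The upper end of the exact interval of its log2 ratio was -6.54. Against a floor of 3 UMIs over the 80 cells, a choice and not an exact limit, the level without Ibsp was 114-fold higher. Lum was lower in the cells with Ibsp, at 1501 and 2854 CPM, and Prelp at 600 and 909 CPM. Dcn (39765 and 32520 CPM) and Bgn (2271 and 1822 CPM) were somewhat higher in them. Chad, the gene of the related leucine-rich protein chondroadherin, was at 3570 and 643 CPM. The cells with Ibsp were the deeper ones, with a median of 9640.5 UMIs against 5318, and the part of depth in these levels was not tested.

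**Figure D4:**
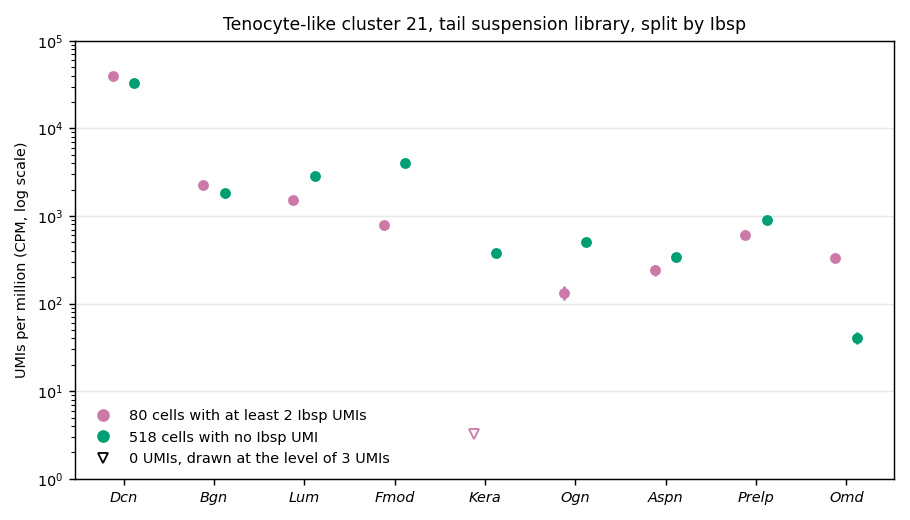
Level of each gene in CPM (log axis) in tail suspension cells of tenocyte-like cluster 21 with at least 2 Ibsp UMIs (80 cells) and with none (518 cells), with exact Poisson 95% intervals. Omd stands at 334 against 40.5 CPM, while Fmod stands at 793 against 4052 CPM and Kera has 0 UMIs in the cells with Ibsp.

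The DNA before the start sites of Fmod and Omd is shown because these genes lay on opposite sides of that split. Both are the 250 bases upstream of the RefSeq start on GRCm38, 5′ to 3′ on the plus strand, at chr1:134037004-134037253 and chr13:49582212-49582461, and capitals mark the E-box, the letters CANNTG that basic helix-loop-helix factors such as Scleraxis recognise.
Fmod: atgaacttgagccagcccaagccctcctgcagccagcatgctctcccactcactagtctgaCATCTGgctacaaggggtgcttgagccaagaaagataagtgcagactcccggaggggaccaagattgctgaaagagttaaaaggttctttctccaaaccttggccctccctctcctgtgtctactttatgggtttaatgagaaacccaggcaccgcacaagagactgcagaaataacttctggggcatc
Omd: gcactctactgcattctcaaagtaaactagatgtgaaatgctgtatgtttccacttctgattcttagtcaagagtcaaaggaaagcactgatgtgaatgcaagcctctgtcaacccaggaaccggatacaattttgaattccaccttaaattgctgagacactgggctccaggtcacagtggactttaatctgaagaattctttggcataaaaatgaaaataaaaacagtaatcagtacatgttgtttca
The Fmod sequence held 1 E-box, which begins at position -189 from the start, and the Omd sequence held none. RefSeq promoters were matched for 7 of the 9 genes. Over windows of 300 bases that also take in the first 50 transcribed bases, 5 of those 7 held an E-box on either strand, beside 72.1% of 27025 promoters. Omd and Kera held none, although Kera lay on the same side of the Ibsp split as Fmod. The letters TATAAA were found in 2 of the 7, Aspn and Ogn, beside 14.2% of all. These matches describe the letters only.

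Outside the fibroblast lineage the clearest levels above free RNA were those of Prelp, Aspn and Bgn in vessel cells. Prelp was at 349 CPM (269 to 444) in 12 non-tail suspension and 277 CPM (245 to 313) in 151 tail suspension lymphatic endothelial-like cells, beside 5.43 and 18.3 CPM in T or NK-like cells. With suspension 47.7% of the lymphatic cells held a Prelp UMI, against 4.94% of T or NK-like cells, and after thinning 39.2% against 2.11%. Dcn in the same lymphatic cells was at 798 CPM, beside 675 CPM in T or NK-like cells. In mural-like cells, the contractile cells of the vessel wall, Aspn was at 729 CPM in 39 and 538 CPM in 108 cells, with a UMI in 79.5% and 75.9% of cells against 4.74% and 12.1% of T or NK-like cells, and Bgn was at 2793 and 1217 CPM. Blood endothelial-like cells had Fmod at 174 CPM without suspension, from 251 UMIs in 5.75% of 87 cells, and at 3.38 CPM with it, so the first value came from very few cells.

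Members of the family sit in groups on the chromosomes. On GRCm38 Dcn, Lum and Kera lie in a row on chromosome 10, with the relative Epyc after them, Aspn, Omd and Ogn lie in a row on chromosome 13 after Ecm2, and Prelp and Fmod lie on chromosome 1 beside Optc. Likeness of expression was taken as Pearson's r of log2(CPM + 10) over the 18 lineage clusters and libraries with at least 50 cells, points that share libraries and depth. For the 7 pairs on the same chromosome the median r was 0.59 (0.09 to 0.67), and for the 29 other pairs it was 0.48 (-0.30 to 0.88). The most alike pair, Fmod and Kera at 0.88, lies on different chromosomes, as does Ogn with Prelp at 0.85. Dcn and Bgn had the lowest r, -0.30, while Aspn and Omd, 14.9 kb apart, had 0.09. Cenpp overlaps Aspn, Omd and Ogn on the other strand and stood at 4.30 and 5.65 CPM in the lineage, and the sources used here do not say whether counting used strand.

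Over all 24 stromal clusters and libraries of at least 50 cells, endothelial-like and mural-like ones included, the genes most like each member by the same measure among 5942 were these. Bgn was most like Col5a2, a collagen that starts fibrils, at 0.97. Dcn was most like Lpar1 (0.91), Igfbp6 and Pdgfra, the receptor that marks fibroblasts. Lum was most like Plxdc2 (0.95), Serpinf1 and Mmp2. Fmod was nearest to Uts2r (0.91), Kcnma1 and Kera, and Kera to Uts2r (0.95), Chad and Cilp2. For Ogn they were Pamr1 (0.92), Cys1 and Bicc1, for Aspn the collagen-binding integrin gene Itga11 (0.87), Olfml2b and Thbs3, and for Prelp Abi3bp (0.91), Reck and Mir99ahg. Omd was nearest to Frzb (0.87), a secreted Wnt inhibitor, Ibsp (0.84) and Coch.

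The relatives of the family did not share one direction in the pooled lineage. Of 8 measured, 5 were lower and 3 higher with suspension, with a median log2 ratio of -0.13. At least 2-fold lower were 3 of the 8 (where 5.94% of all genes were): Epyc at 32.8 and 15.3 CPM, Chadl at 6.13 and 1.88 CPM and Podnl1 at 6.21 and 0.717 CPM. Tsku, the gene of tsukushi, was at least 2-fold higher (10.6%), at 19.998 and 42.3 CPM. Chad stood at 36.0 and 60.4 CPM, Ecm2 at 45.6 and 75.3 CPM, Podn at 44.98 and 41.98 CPM, and Optc at 0.592 and 0.528 CPM. Chad was at 1191 and 1244 CPM in tenocyte-like cluster 21.

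The shares over all genes in the lineage, against which the counts of the lists below are read, are the 5.94% at least 2-fold lower, the 10.6% at least 2-fold higher and the median log2 ratio of 0.07. The genes named as past 2-fold are all those of a list that were, chosen after their values were seen. Of 22 enzymes for chondroitin and dermatan sulfate, 14 were lower and 8 higher, with a median of -0.39. At least 2-fold lower was 1, Csgalnact1, which starts the chondroitin chain, at 142 and 59.8 CPM, and at least 2-fold higher was 1, Chst3, from 9 and 48 UMIs, so neither count stood above the share over all genes. Csgalnact2 was at 50.3 and 73.3 CPM, the polymerising factor gene Chpf at 79.5 and 62.8 CPM and Dse, the epimerase that makes dermatan sulfate, at 81.4 and 81.8 CPM. Of 8 measured enzymes for keratan sulfate, 2 were lower and 6 higher, with a median of 0.09, about that of all genes. The 2 lower ones were at least 2-fold lower, B4galt4 at 8.20 and 2.22 CPM and Chst1 at 7.08 and 2.99 CPM. The 1 at least 2-fold higher, B3gnt7, rests on 3 and 17 UMIs. The intervals of B3gnt2, B3gnt7 and Chst5 hold 0. B4galt1 stood at 136 and 150 CPM, B3gnt2 at 35.9 and 36.9 CPM, the core fucosyltransferase gene Fut8 at 22.7 and 24.8 CPM and the sulfotransferase gene Chst2 at 21.6 and 24.7 CPM.

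The collagens these proteins bind were lower for 11 of 13 genes with suspension, with a median of -0.63. At least 2-fold lower were 3 of the 13 (5.94% of all genes), Col1a1, Col11a1 and Col11a2, and none was at least 2-fold higher (10.6%). Col1a1 stood at 14208 and 5315 CPM, Col1a2 at 12592 and 7112 CPM, Col3a1 at 18755 and 10494 CPM and Col5a2 at 2108 and 1393 CPM. Of 17 genes for collagen processing and cross-linking, 12 were lower with a median of -0.30, with 1 at least 2-fold lower, Serpinh1, and 1 at least 2-fold higher, Pcolce2, at 58.5 and 211 CPM. The collagen chaperone gene Serpinh1 was at 1332 and 498 CPM, the propeptidase enhancer Pcolce at 1122 and 807 CPM, and the cross-linking enzyme genes Lox at 1220 and 1123 CPM and Loxl1 at 395 and 339 CPM. Of 11 proteases known to cut members of the family, 8 were lower with a median of -0.62. At least 2-fold lower were 4 of the 11 (5.94% of all genes), Mmp3, Mmp9, Mmp13 and Gzmb, and at least 2-fold higher 1 (10.6%), Adamts4, at 9.63 and 26.3 CPM. Mmp9 is a marker of osteoclast-like cluster 13, and Gzmb is among the leading genes of T or NK-like clusters 17 and 23. The part of free RNA or remaining doublets in their lineage levels was not tested, so the count is not read as a change in fibroblasts. Mmp3 stood at 2204 and 1061 CPM, Mmp2 at 1845 and 1197 CPM, Htra1 at 635 and 351 CPM and Adamts5 at 286 and 457 CPM. Of 21 receptors and bound growth factors, 7 were lower and 14 higher with a median of 0.21. At least 2-fold lower were 2 of the 21 (5.94% of all genes), Cd14 and Ccn4, and at least 2-fold higher 5 (10.6%), Met, Kdr, Itga2, Bmp2 and Bmp4. Kdr is a marker of blood endothelial-like cluster 14 and rests on 22 and 84 UMIs. The part of free RNA or remaining doublets in its level was not tested. The endocytic receptor gene Lrp1 stood at 799 and 924 CPM, Cd44 at 313 and 480 CPM, Itgb1 at 369 and 408 CPM and Tgfbr2 at 203 and 207 CPM. The cluster shares that differed between libraries are those given above for the family, and their part in these pooled values was not tested.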

How the data were processed

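Single cells were prepared on the 10x Genomics platform, per the labels. The deposited values are raw UMI counts, 1 for each gene in each barcode. Counting was done with Cell Ranger 5.0.1 on GRCm38, per the submitters' processing notes; any step that joined the 2 libraries or set their depths alike is not given in the sources used here, nor is the number of animals.

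A barcode was kept from 300 genes upward and up to 20% mitochondrial UMIs. Scrublet in scanpy 1.11.5 marked 1.21% and 3.40% of cells as doublets, which were removed; 9.14% and 12.4% were expected, so doublets may remain. Clusters were made from 2000 variable genes less the 9 genes and their relatives (1990 left), 30 components and Leiden resolution 1.0. A cluster was named for a marker class with at least 3 markers among its top 50 genes. UMIs were summed per cluster and library to CPM, with exact Poisson intervals for levels, Clopper-Pearson intervals for shares and conditional binomial intervals for ratios. The ratio code was run on simulated Poisson counts, the model its interval assumes, so this checks the code and not the spread between cells. Named beside the 9 genes were all measured relatives, the 4 genes with most UMIs of each other list and the 3 genes most alike by correlation. Positions are from GENCODE M21 and promoters from RefSeq (GRCm38.p6). The alternatives tried are given in the closing section. The members, lists and markers were chosen with earlier results of these data known.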

Additional observations from a re-analysis of the deposited data

How the results depend on the processing

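No paired analysis was possible because each group is 1 library. The median log2 ratio over the 9 genes in the lineage (-0.61) was -0.68 with median-of-ratios scaling, -0.66 without the members, collagen and mitochondrial genes in the total, -0.53 at resolution 2.0, -0.64 with doublets kept, -0.46 in thinned cells, -0.49 as a mean over cells and -0.71 with free RNA subtracted. As a mean of ratios within 4 clusters of at least 100 cells it was -0.12, within 8 of at least 50 cells -0.025 and within 7 finer clusters -0.28. It was -0.82 with cluster 5 or the unnamed clusters left out and 0.37 without the tenocyte-like clusters, settings chosen after seeing the data, as were those of 50 cells. The count at least 2-fold lower (2) was 1 at resolution 2.0, in thinned cells, as a mean over cells and within finer clusters, and 0 within clusters of either size and without the tenocyte-like clusters. The count at least 2-fold higher (0) was 1 in thinned cells and as a mean over cells, and 2 without the tenocyte-like clusters. The share over all genes was not computed under these alternatives, so their counts are not read. Fmod in the lineage turned to 0.010 within 8 clusters and 0.24 without the tenocyte-like clusters. Both take in clusters where no difference is read for Fmod. With the members kept in clustering, the sheath or lining fibroblast-like class turned to 0.22 for Fmod, 0.020 for Ogn and 1.31 for Omd, and Omd was 1.18 there with at least 500 genes. Kera in the tenocyte-like class was -0.063 at resolution 0.5. Beyond the change in which cells are pooled, the cause was not tested. Classes under 100 cells in a library under a setting gave no value, and median-of-ratios scaling was not run for levels. Omd rests on 3 to 51 UMIs a library in clusters 7 and 22.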
